A study of Mus musculus with 4 samples.

Results

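The report covers 10 genes of the p53 and RB tumour suppressor pathways, Trp53, Rb1, Cdkn2a, Cdkn1a, Mdm2, Ccng1, Phlda3, Bax, Eda2r and Zmat3, out of 31053 genes in the deposited tables. They were picked by symbol, and all 10 were present once. The protein p53 is a transcription factor that is held low by the ubiquitin ligase Mdm2 and, when DNA is damaged or an oncogene is active, switches on genes for cell cycle arrest, DNA repair and apoptosis. The RB protein binds E2F transcription factors and holds back the genes for DNA replication until cyclin-dependent kinases phosphorylate it. Small-cell lung cancer, a neuroendocrine tumour, is known for loss of both proteins, and mouse models of it are commonly built by deleting both genes.

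Tumour cells of a mouse model of small-cell lung cancer had been placed in the lungs of mice, which were then given 1 of 4 treatments. The control group received vehicle and an isotype IgG. The anti-PD-1 group received a checkpoint-blocking antibody, clone 29F.1A12, at 200 µg per mouse. The YKL-5-124 group received this inhibitor of the kinase CDK7, at 10 mg/kg on weekdays, and the combination group received both agents. Perfused lungs were digested, live cells were sorted by exclusion of DAPI, and 1 library per group was made with a 3′ droplet kit, so no treatment has a replicate and no treatment difference was tested. The labels give neither the tumour cells' genotype nor the number of animals behind a library, and a tag near the 3′ end of a transcript checks no deletion upstream of it.

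The libraries held 17329001 to 22950622 UMIs (unique molecular identifiers, each counting 1 captured RNA molecule). A minimum of 500 UMIs and 300 detected genes, with no more than 10% mitochondrial UMIs, left 3481, 2736, 4152 and 4042 barcodes in the control, anti-PD-1, YKL-5-124 and combination libraries, the order in which values are given throughout. Pairs of libraries shared 469 to 537 of these barcodes, where random draws would give 12.9 to 22.8. In 328, 447, 351 and 386 barcodes the count was under 10% of that of the same barcode in another library, with a median between 2.28% and 2.60%, and these barcodes were left out. When kept they made up 22.7%, 36.6%, 17.8% and 30.3% of the tumour gate, and keeping them ended 1 call among the comparisons below, that of Trp53 against neutrophils. Marker genes then assigned 2147 cells to the tumour gate (679, 443, 571 and 454), 3072 to T cells, 976 to NK cells, 2263 to B cells, 1637 to monocytes or macrophages and 1084 to neutrophils. In the tumour gate the 20 neuroendocrine markers summed to 6887 to 7774 CPM (UMI counts scaled to the same total in every sum), and 1 of them, Dlk1, was at 0 in the combination. The same list was at 32.1 to 117 CPM in the T, NK, B and monocyte/macrophage gates, but at 150, 121, 498 and 1058 CPM in the neutrophil gate, and the part of tumour RNA in the neutrophil values below was not tested.

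Sequence upstream of the start of transcription was taken from RefSeq (build GRCm38.p6), which gave 10 promoters for 8 of the 10 genes. It is shown for the genes on which the results turn: Cdkn2a, which has a separate promoter for each of its 2 protein-coding transcripts, and the p53 target genes Cdkn1a, Mdm2 and Ccng1. Each run is 250 bases, 5′ to 3′ on the gene's strand. Capitals mark an E2F motif, searched as TTTNNCGC on both strands, in the Cdkn2a promoters and a p53 half-site, likewise on both strands, in the others. The motif TTTNNCGC was in 5.17% and the p53 half-site in 8.36% of all 32851 promoter windows of 300 bases, which also take in the first bases of the transcript. Starts are those of RefSeq, and the GENCODE gene spans given below reach some bases into the printed runs of Cdkn2a promoter 1, Cdkn1a promoter 1 and Ccng1.
Cdkn2a promoter 1, chr4:89294620-89294869, minus strand: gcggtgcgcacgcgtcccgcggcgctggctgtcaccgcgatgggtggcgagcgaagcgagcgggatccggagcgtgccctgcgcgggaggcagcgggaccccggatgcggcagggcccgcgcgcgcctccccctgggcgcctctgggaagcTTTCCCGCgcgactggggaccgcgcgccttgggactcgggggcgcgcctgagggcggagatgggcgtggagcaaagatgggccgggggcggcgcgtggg
Cdkn2a promoter 2, chr4:89282193-89282442, minus strand: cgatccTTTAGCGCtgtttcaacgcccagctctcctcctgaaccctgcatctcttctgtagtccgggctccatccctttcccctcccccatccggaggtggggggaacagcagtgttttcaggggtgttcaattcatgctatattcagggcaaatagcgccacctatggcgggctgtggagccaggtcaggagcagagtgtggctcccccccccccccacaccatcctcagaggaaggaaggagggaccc
Cdkn1a promoter 1, chr17:29090729-29090978, plus strand: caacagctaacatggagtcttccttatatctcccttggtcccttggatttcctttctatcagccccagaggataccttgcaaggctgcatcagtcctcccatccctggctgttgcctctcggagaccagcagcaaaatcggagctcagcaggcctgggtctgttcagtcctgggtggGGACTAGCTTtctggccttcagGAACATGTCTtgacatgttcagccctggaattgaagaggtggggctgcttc
Mdm2, chr10:117710759-117711008, minus strand: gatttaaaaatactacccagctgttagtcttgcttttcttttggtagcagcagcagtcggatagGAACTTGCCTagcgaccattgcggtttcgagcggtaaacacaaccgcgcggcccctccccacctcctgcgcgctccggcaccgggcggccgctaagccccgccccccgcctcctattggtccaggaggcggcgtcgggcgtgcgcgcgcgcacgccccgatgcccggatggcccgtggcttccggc
Ccng1, chr11:40755287-40755536, minus strand: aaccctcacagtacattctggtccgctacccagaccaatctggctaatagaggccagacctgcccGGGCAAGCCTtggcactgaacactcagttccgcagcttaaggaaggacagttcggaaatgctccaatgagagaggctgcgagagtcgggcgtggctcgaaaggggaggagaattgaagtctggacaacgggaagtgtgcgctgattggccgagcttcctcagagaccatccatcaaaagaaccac
Both Cdkn2a promoters held 1 match to TTTNNCGC, and the Mdm2 promoter held 1 on the opposite strand. Cdkn1a promoter 1 held 2 p53 half-sites, Mdm2 and Ccng1 1 each, and so did the Bax and Trp53 promoters, which are not printed. No p53 half-site was found in the second Cdkn1a promoter (chr17:29093519-29093768, not printed), in either Cdkn2a promoter or in the windows of Phlda3 or Eda2r. A match is a description of the letters only.

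Cdkn2a set the tumour cells apart from every normal gate that was tested, and they carried little Trp53 RNA relative to T, NK and B cells. Cdkn1a was high in tumour cells and also in myeloid cells, and the p53 target genes differed from each other in direction. Each lineage was compared with the tumour gate on UMI sums per library by edgeR's quasi-likelihood test with the library as a block, p-values adjusted by Benjamini-Hochberg over 11077 genes. Of the 10 genes, 8 passed its filter on low counts, and Phlda3 and Eda2r did not. Against T cells 3 of the 8 were higher and 3 lower, where 80.5% of all tested genes were called, 46.1% higher and 34.4% lower. The counts were 3 higher and 2 lower against NK cells, where 69.5% of all genes were called, 41.6% higher and 27.9% lower, and 4 and 3 against B cells, where 76.9% were, 44.5% and 32.4%. Against monocytes or macrophages 2 were higher and 6 lower with 82.4% of all genes called, 45.5% and 36.8%, and against neutrophils 3 and 5 with 73.2%, 44.4% and 28.8%. Against the lymphocyte gates the members' counts lie near the shares over all genes and are not a result about the members. Against the myeloid gates more of the 8 were lower than the share over all genes gives, which was not tested and did not hold for neutrophils under total counts, where 0 of 8 were lower. Their median log2 difference was 0.03, 0.04, 0.18, -0.86 and -0.59 against T, NK, B, monocyte/macrophage and neutrophil gates, beside 0.21, 0.31, 0.25, 0.19 and 0.51 over all tested genes.

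The scaling matters for genes near equality. The main fit used TMM factors, and scaling by total UMIs alone raised the median of all genes by 0.60 against T cells, 0.49 against NK cells, 0.65 against B cells, 0.81 against monocytes or macrophages and 1.08 against neutrophils (log2). The share of called genes that were higher in the tumour gate rose with it, from 57.3% to 74.4% for T cells, 59.8% to 74.3% for NK cells, 57.8% to 75.8% for B cells, 55.3% to 73.2% for monocytes or macrophages and 60.6% to 79.3% for neutrophils. Under total counts 5 of the 8 genes were higher and 2 lower against T cells, 4 and 2 against NK cells, 5 and 2 against B cells, 4 and 4 against monocytes or macrophages, and 4 and 0 against neutrophils. CPM values are relative to total UMIs, so a CPM difference and a fitted difference can part by these amounts. The libraries that serve as replicates came from differently treated mice. With the library as a block, p-values measure how the differences between gates vary from library to library, not the spread between mice.

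**Figure D1:**
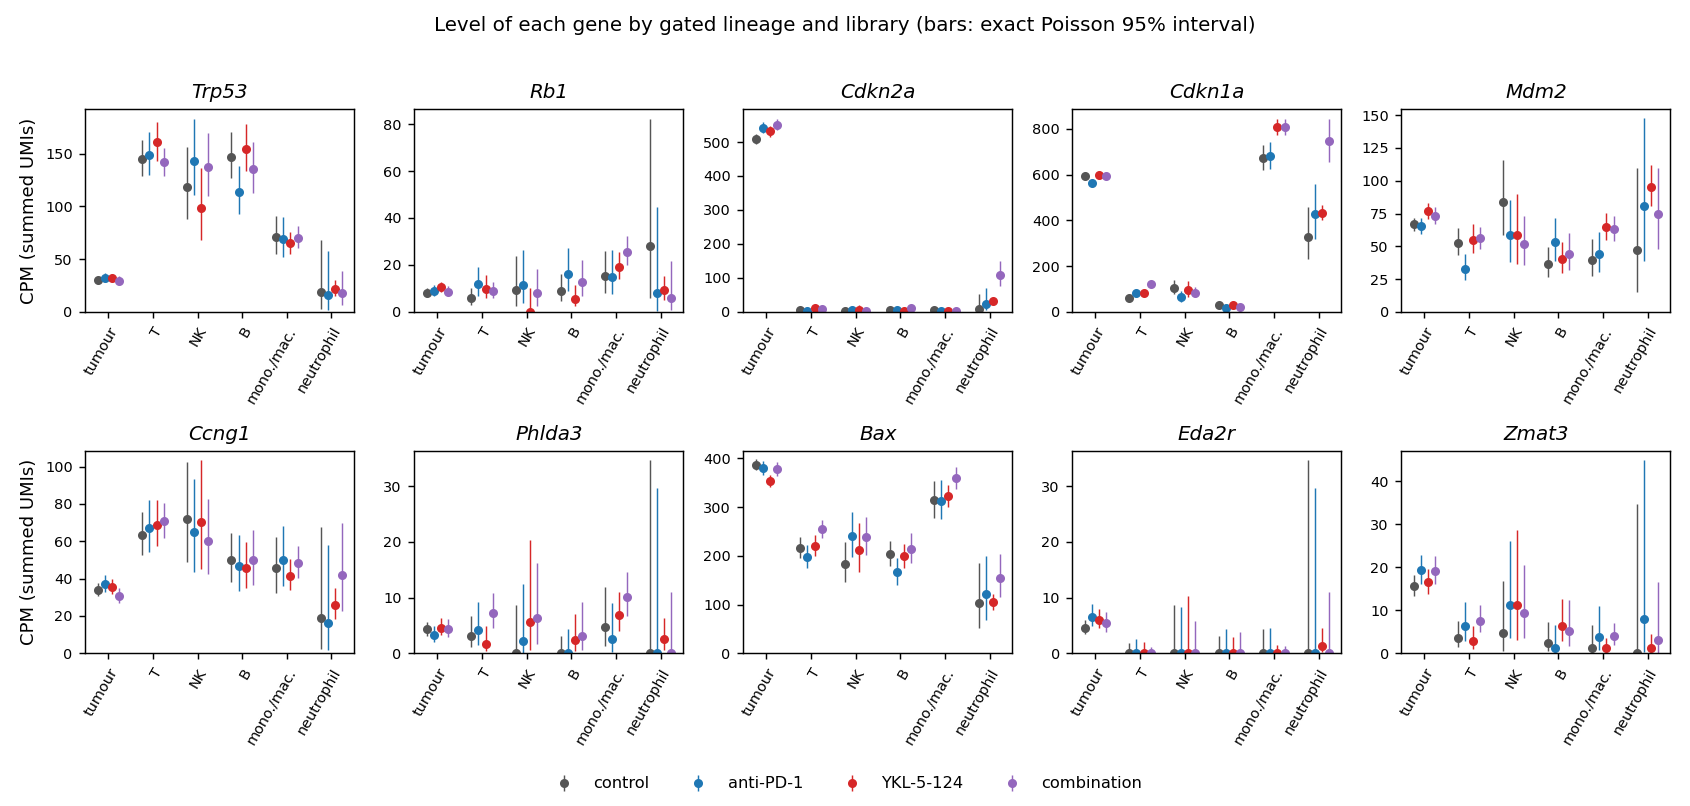
CPM of each of the 10 genes in the tumour gate and the 5 normal gates, 1 point per library, with exact Poisson 95% intervals as bars. Cdkn2a lies at 509 to 551 CPM in the tumour gate and at 107 CPM or below in every normal gate shown, while Trp53 is lower in the tumour gate than in the lymphocyte and monocyte/macrophage gates in every library.

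Trp53 encodes p53 itself (chr11:69580359-69591873, plus strand, GENCODE M21 annotation of GRCm38, as for all gene positions here). Its level in the tumour gate was 29.97, 32.49, 31.67 and 29.66 CPM (30.9 ± 1.36, SD, n = 4 libraries). T cells had 145, 149, 161 and 142 CPM, NK cells 119, 144, 98.1 and 137 CPM, and B cells 147, 114, 155 and 135 CPM. Every lymphocyte library stood above every tumour library, and so did the monocyte/macrophage libraries at 71.2, 69.0, 65.0 and 70.4 CPM. Neutrophils had the lowest levels of the tested gates, 18.8, 16.1, 21.9 and 17.9 CPM, from 2, 2, 35 and 6 UMIs. The mean of 155 endothelial cells, not tested, was 16.6 CPM from 7 UMIs. That of 90 plasma cells, also not tested, was 32.6 CPM from 36 UMIs, near the tumour level. Means of the other small gates ran from 46.4 CPM in dendritic cells to 133 CPM in erythroid cells. The fitted log2 difference of tumour over T cells was -2.86 (SE 0.09, edgeR adjusted p = 6.61e-36), over NK cells -2.52, over B cells -2.81 and over monocytes or macrophages -1.94, each called in every alternative. In the order of mean CPM, T, B, NK, monocyte/macrophage, tumour and neutrophil, the T and B gates and the B and NK gates did not differ beyond their spread (edgeR adjusted p = 0.749 and 0.0833). Against neutrophils the fit gave -0.52 (edgeR adjusted p = 0.0482), but +0.60 under total counts, and 3 of 15 alternatives kept the call, that of keeping repeated barcodes not among them (-0.50, edgeR adjusted p = 0.0551). Tumour cells carried more UMIs (median 8609 to 9571 UMIs against 1977 to 2394.5 in T cells), so shares of cells were compared after thinning each cell to 800 UMIs. The share with a Trp53 UMI was then 1.63%, 3.19%, 2.99% and 1.55% in the tumour gate and 9.78%, 11.1%, 10.7% and 10.2% in T cells, while the unthinned shares were 27.0%, 25.3%, 28.2% and 28.9% against 26.4%, 31.7%, 30.2% and 33.7%. RNA in barcodes with 10 to 100 UMIs, taken as free RNA of the suspension, held Trp53 at 114 to 144 CPM, so the tumour gate lay below the free RNA.

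Trp53 UMIs were unevenly spread within the tumour gate. In bins chosen after the values were seen, 1560 of 2147 tumour cells (72.7%) had no Trp53 UMI and 503 had 1 or 2. A set of 23 cells (1.07%) had 5 or more and together held 19.7% of the gate's Trp53 UMIs. These cells, 7, 9, 6 and 1 per library, had median depths of 50053, 53498, 26227.5 and 53998 UMIs and 185, 157, 254 and 407 Trp53 CPM. Their neuroendocrine markers summed to 6620, 6354, 6304 and 5741 CPM, and Cdkn2a stood at 436, 535, 477 and 315 CPM. The gate selects cells by these markers and the bin by Trp53, so neither of those values tells what the cells are. The highest Trp53 count in 1 cell was 22, in the combination, and whether these cells are doublets was not tested.

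Cdkn2a encodes 2 unrelated proteins, p16Ink4a, which inhibits the kinases Cdk4 and Cdk6 upstream of RB, and p19Arf, which inhibits Mdm2. It lies at chr4:89274471-89294653 on the minus strand, and its 2 protein-coding transcripts have different first exons (chr4:89294334-89294653 and chr4:89281986-89282192) joined to a shared exon 2 and exon 3. Tags of a 3′ kit are read near the end that both transcripts share, so they cannot tell p16Ink4a from p19Arf. The printed promoter 1 reaches a few bases into the first of these exons, and promoter 2 ends just before the second. In the tumour gate Cdkn2a was at 508.6, 542.6, 532.0 and 551.1 CPM (534 ± 18.4, SD, n = 4). T cells had 5.18, 3.50, 11.5 and 7.56 CPM, NK cells 2.33, 4.49, 5.61 and 1.58 CPM, and B cells 5.73, 5.81, 3.22 and 10.6 CPM. Monocytes or macrophages had 5.83, 1.25, 2.44 and 2.89 CPM. No normal library of these gates came near the tumour range. The fitted log2 difference was 5.65 over T cells (SE 0.18, edgeR adjusted p = 1.67e-23), 6.89 over NK cells, 5.80 over B cells and 6.75 over monocytes or macrophages, with the call kept in 15 of 15 alternatives for each. The difference over T cells exceeded that of 94.6% of the genes tested.

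The neutrophil gate held 9.39, 24.1, 31.8 and 107 Cdkn2a CPM, from 1, 3, 51 and 36 UMIs, highest in the combination library, which also had the highest sum of neuroendocrine markers in that gate. The fitted difference over neutrophils was 2.54, and 5.09 after the highest Scrublet doublet scores were removed. The share of that level that comes from tumour RNA was not tested. The gate of airway or alveolar epithelium, 76 cells in all (6, 11, 17 and 42), had 0, 331, 158 and 31.6 CPM. The 0 allows up to 83.9 CPM, and the part of tumour RNA in this gate was not tested. After thinning to 800 UMIs, 31.3%, 35.3%, 37.5% and 28.6% of tumour cells had a Cdkn2a UMI, and 0.978%, 0.182%, 0.893% and 0.308% of T cells did. Unthinned the shares were 90.7% to 92.7% and 0.890% to 2.50%. Free RNA held Cdkn2a at 183, 149, 124 and 109 CPM, and its part in the T-cell UMIs was not tested.

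Rb1, the gene of the RB protein (chr14:73183673-73325822, minus strand), gave few UMIs, 297 over the whole tumour gate. The 3′ end of its annotated span is overlapped on the same strand by Gm17233 and on the other by Rcbtb2, so its counts are uncertain. The tumour gate had 8.11, 8.87, 10.4 and 8.55 CPM and T cells 5.70, 11.9, 9.90 and 8.82 CPM, with overlapping ranges. Monocytes or macrophages had 15.2, 15.0, 19.1 and 25.6 CPM, all above the tumour libraries. The fitted log2 difference was -1.93 over monocytes or macrophages (SE 0.21, edgeR adjusted p = 3.32e-12), and it was called under every alternative. Over T cells it was -0.56 (edgeR adjusted p = 0.031) but +0.046 under total counts, and over B cells -0.85, with no call under total counts (-0.20, edgeR adjusted p = 0.518). Over NK cells it was -0.20 (SE 0.45, edgeR adjusted p = 0.700).

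Cdkn1a encodes p21, the cyclin-dependent kinase inhibitor that p53 induces for cell cycle arrest (chr17:29090976-29100727, plus strand). Tumour cells had 595, 563, 599.7 and 594 CPM (588 ± 16.8, SD, n = 4). T cells had 58.5, 80.5, 80.8 and 121 CPM, NK cells 105, 62.8, 95.3 and 83.7 CPM, and B cells 29.5, 16.3, 29.8 and 21.2 CPM. Monocytes or macrophages had 674, 682, 808 and 808 CPM, above every tumour library, and every lymphocyte library lay below. The fit put it at a log2 difference of 2.21 over T cells (SE 0.14, edgeR adjusted p = 3.93e-16), 2.30 over NK cells and 3.93 over B cells. Over monocytes or macrophages it was -1.12 (edgeR adjusted p = 1.30e-09), and -0.32 under total counts (edgeR adjusted p = 0.0464). Neutrophils spread widely, at 329, 427, 434 and 745 CPM, and the fit gave -0.67, or +0.30 without a call under total counts. Gates too small for the test lay on both sides of the tumour level. There were 592, 1439, 1426 and 1802 CPM in 99 dendritic cells, with the control library at the tumour level, and 1301, 1756, 1259 and 1925 CPM in 155 endothelial cells. Means over the libraries were 467 CPM in epithelium, 351 in mast cells or basophils, 278 in mesenchymal cells and 14.2 in plasma cells, and 21 erythroid cells held 0 UMIs, which allows up to 29.2 CPM. In thinned cells the share with a Cdkn1a UMI was 27.7%, 30.3%, 30.5% and 31.9% in the tumour gate, 39.5%, 37.2%, 44.0% and 44.6% in monocytes or macrophages and 4.16%, 4.92%, 3.72% and 4.52% in T cells.

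Mdm2, the ligase that degrades p53 and is itself a p53 target (chr10:117688875-117710758, minus strand), did not pass the test against T, NK or B cells. The tumour gate had 66.8, 65.3, 77.1 and 73.1 CPM, T cells 52.8, 32.9, 55.0 and 56.1 CPM, and NK cells 83.8, 58.3, 58.9 and 52.1 CPM. The tumour libraries lay above the T libraries and overlapped the NK libraries. The fitted log2 difference over T cells was -0.10 (SE 0.13, edgeR adjusted p = 0.471) and +0.51 with a call under total counts, and over B cells 0.08 and +0.73. Over monocytes or macrophages it was -0.44, called lower, and +0.36, called higher, under total counts. Over neutrophils, at 46.9, 80.5, 95.5 and 74.5 CPM, it was -1.29, called lower (SE 0.18, edgeR adjusted p = 1.17e-08), and -0.21 without a call under total counts (edgeR adjusted p = 0.218).

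Ccng1 encodes cyclin G1, which recruits a phosphatase to Mdm2 (chr11:40748552-40755311, minus strand). It was lower in the tumour gate, at 33.9, 37.1, 35.6 and 30.9 CPM, than in T cells, at 63.2, 67.2, 68.7 and 70.6 CPM, with no overlap. In the fit its log2 difference was -1.57 over T cells (SE 0.10, edgeR adjusted p = 7.90e-21), -1.43 over NK cells, -1.13 over B cells and -1.22 over monocytes or macrophages. Its call stood under total counts for these 4 gates, at -0.97, -0.93, -0.47 and -0.41, while over neutrophils -0.79 became +0.32.

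Bax encodes a protein that opens the mitochondrial outer membrane in apoptosis (chr7:45461697-45466898, minus strand). The tumour gate had 387, 379, 354 and 378 CPM, T cells 217, 197, 220.5 and 255 CPM, and monocytes or macrophages 314, 313, 323 and 360 CPM. By CPM the tumour libraries stood above the T libraries. The tumour and monocyte/macrophage ranges overlapped, but within each of the 4 libraries the tumour gate had the higher CPM. Tumour over T cells the fit gave a log2 of 0.16 (SE 0.10, edgeR adjusted p = 0.136) and 0.77 with a call under total counts. It was 0.29 over NK cells and 0.29 over B cells, calls lost in 7 of 15 alternatives each. Over monocytes or macrophages it was -0.60, called lower, and +0.21, called higher, under total counts, the direction of the CPM. Over neutrophils it was 0.64 (edgeR adjusted p = 2.69e-05).

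Zmat3 encodes a zinc finger protein that binds RNA and is a p53 target (chr3:32334792-32366014, minus strand). The tumour gate had 15.6, 19.3, 16.6 and 19.2 CPM and T cells 3.63, 6.30, 2.75 and 7.56 CPM, with no overlap. Over T cells the fitted log2 difference was 1.18 (SE 0.24, edgeR adjusted p = 1.31e-05), and it was 1.48 over B cells, 2.01 over monocytes or macrophages and 2.07 over neutrophils, the last from 4 neutrophil UMIs. Over NK cells it was 0.51 (edgeR adjusted p = 0.205).

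Eda2r encodes a receptor of the TNF receptor family and is a p53 target (chrX:97333840-97377216, minus strand). The tumour gate had 4.55, 6.58, 6.06 and 5.38 CPM, from 50, 46, 49 and 39 UMIs. T, NK, B and monocyte/macrophage gates had 0 UMIs in every library, and the neutrophil gate had 2, both in the YKL-5-124 library. Set against 3 counts over each whole gate, the tumour level was at least 15.4-fold higher than in T cells, 3.44-fold than in NK cells, 7.86-fold than in B cells and 12.7-fold than in monocytes or macrophages. Exact intervals that also cover the counting error of the tumour gate reached down to 12.4, 2.77, 6.33 and 10.2. Against neutrophils the ratio was 5.99, with an exact interval of 1.63 to 49.8 that covers counting error only. Among gates too small for the test, 51 mesenchymal cells held 2 UMIs, a pooled 8.22 CPM (0.996 to 29.7). Endothelial cells, epithelium and plasma cells held 0 UMIs, which allows up to 11.2, 5.92 and 2.15 CPM.

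Phlda3 encodes a small protein that restrains Akt signalling and is a p53 target (chr1:135766119-135769136, plus strand). The tumour gate had 4.28, 3.29, 4.58 and 4.28 CPM, and T cells had 4.05 ± 2.37 CPM (SD, n = 4). Without the filter on low counts edgeR gave an adjusted p of 7.40e-06 for a log2 difference of -1.47 over monocytes or macrophages, and no call over the other 4 gates. The levels were highest in endothelial cells, at 206, 225, 276 and 316 CPM, and in mesenchymal cells, at 225, 157, 218 and 183 CPM.

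**Figure D2:**
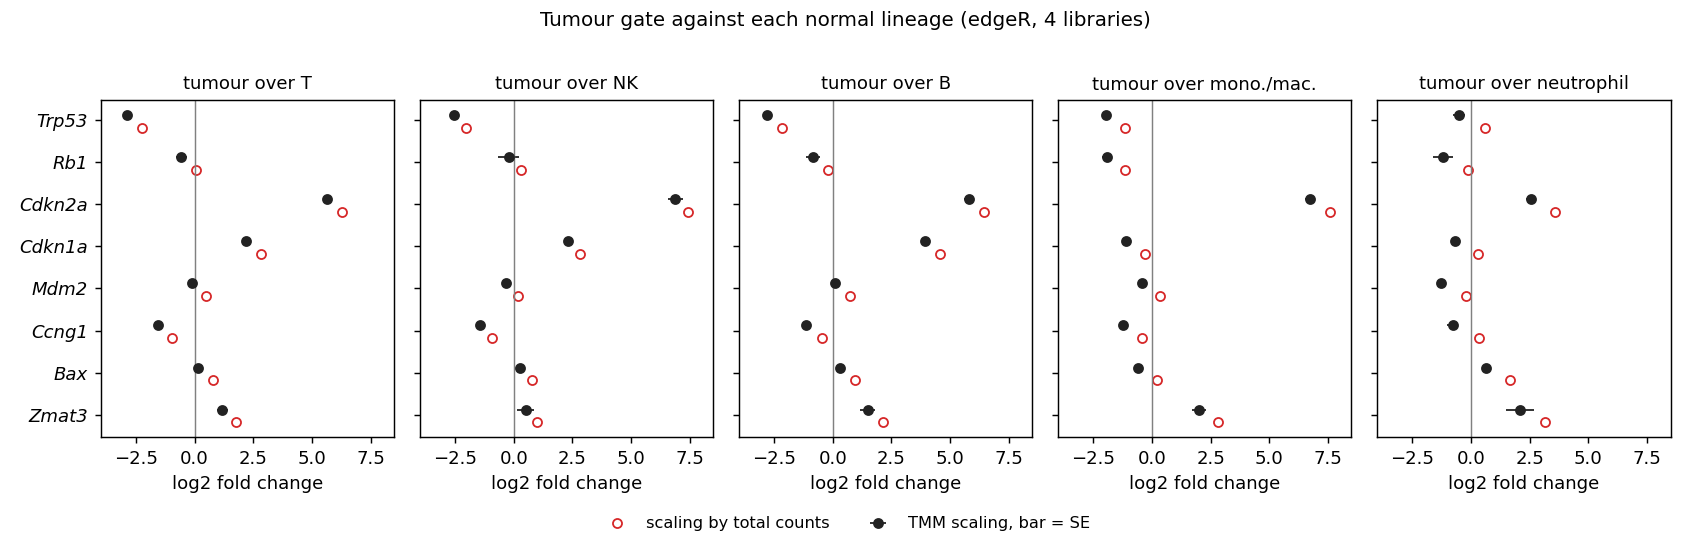
Fitted log2 difference of the tumour gate over each normal gate for the 8 tested genes (edgeR, bars 1 SE), with the value under total counts as a second symbol. Cdkn2a lies above 0 against all 5 gates and Trp53 below 0 against the lymphocyte and monocyte/macrophage gates under both scalings, while Mdm2 and Bax cross 0.

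Over the 24 sums of 6 gates and 4 libraries, genes whose log2(CPM + 10) closely resembled Trp53 among 5190 candidates included Eef1d (Pearson r 0.963) and Rps18 (0.957). Those most like Cdkn2a were Nfib (0.991), Hap1 (0.990) and Nkx2-1 (0.990), and those most like Cdkn1a were Sem1 (0.952), App (0.935) and Znhit1 (0.928). These are descriptions over sums that share libraries and differ in depth by gate.

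Genes around the members were read in 5 lists. Of 32 tested p53 target genes other than the 10, 12 were higher and 14 lower in the tumour gate than in T cells, with a median log2 difference of -0.24 beside 0.21 over all genes. Under total counts the split was 15 and 9, with a median of 0.36. Against NK cells 11 were higher and 10 lower, against B cells 11 and 11, against monocytes or macrophages 14 and 13, and against neutrophils 12 and 13. Fas, a death receptor, was at 1.30 CPM against 67.3 in T cells (log2 -6.16), and Dgka, a diacylglycerol kinase, at 5.78 against 164 (log2 -5.40). Gdf15, a secreted stress cytokine, was at 28.8 against 0.216 CPM (log2 6.01). Ak1, an adenylate kinase, had 464 tumour UMIs and none in T cells, at least 38.8-fold higher against 3 counts over the gate. Plk2, a polo-like kinase, was at 21.7 and 13.9 CPM and Rrm2b, a ribonucleotide reductase subunit, at 18.9 and 15.6 CPM, neither past the threshold. Of 15 p53 regulators and relatives 5 were higher and 6 lower than in T cells, and 9 and 3 under total counts. Trp73, a relative of p53, was at 18.7 against 0.346 CPM (log2 4.91), Chek1, a checkpoint kinase, at 49.5 against 3.55 CPM (log2 3.13), and Mdm4, an inhibitor of p53, at 33.3 against 56.5 CPM (log2 -1.37). Aen, Ep300, Crebbp, Npm1, Cdkn1b and Lin37 of these lists were called lower than in T cells but lay above 0 under total counts.

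Nearly all E2F target genes were higher in the tumour gate. All 23 E2F target genes were higher in the tumour gate than in T cells and than in monocytes or macrophages, 21 than in NK cells, and 22 than in B cells and than in neutrophils, where 1 was lower in each. The median log2 difference over T cells was 1.62, and 2.24 under total counts, beside 0.21 and 0.81 over all genes. Ccne2, a cyclin of the G1 to S transition, was at 299 against 9.89 CPM in T cells (log2 4.34), Cdc6, which loads replication origins, at 70.0 against 7.10 CPM (log2 2.67), and Cdk1, the mitotic kinase, at 339 against 39.9 CPM (log2 2.48). All 20 genes of the G2/M list were higher than in T, NK, B and monocyte/macrophage gates and 19 than in neutrophils. Cenpf, a centromere protein, led that list over T cells, at 485 against 35.4 CPM (log2 3.17).

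The RB family, E2F and G1 regulators split, with 16 of 27 higher and 9 lower than in T cells. Higher and lower counts were 16 and 6 against NK cells, 16 and 9 against B cells, 18 and 8 against monocytes or macrophages, and 14 and 6 against neutrophils. Cdk6, a kinase of D-type cyclins, was at 0.609 against 48.0 CPM in T cells (log2 -6.76) and the D-type cyclin Ccnd2 at 5.49 against 388 CPM (log2 -6.75). The other D-type cyclins, Ccnd3 at 20.0 against 247 CPM (log2 -4.22) and Ccnd1 at 1.16 against 3.05 CPM (log2 -2.08), and Cdk4, the other kinase, at 488 against 115 CPM, were named after their values were seen. Cdkn1c, which encodes the kinase inhibitor p57, was at 62.7 against 1.14 CPM (log2 5.09). Rbl2, the RB relative p130, was at 2.31 against 34.9 CPM (log2 -4.49). Rbl1, the RB relative p107, and Cdkn2c, the inhibitor p18, were named after their values were seen, at 19.6 against 24.2 CPM and at 290 against 16.2 CPM.

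**Figure D3:**
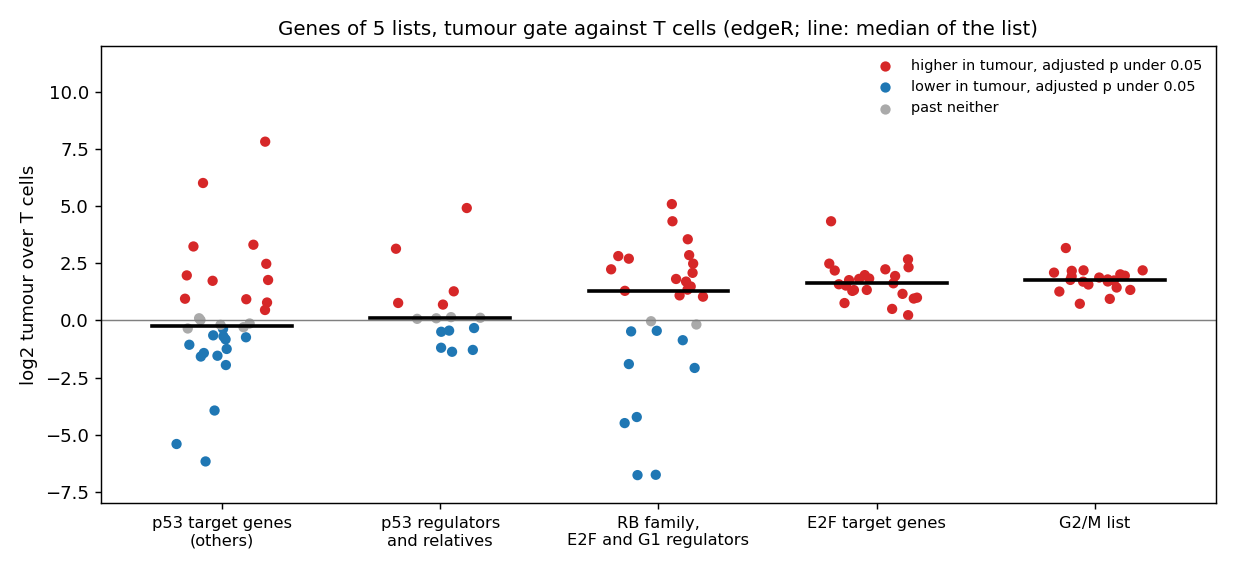
Fitted log2 difference of the tumour gate over T cells for each tested gene of the 5 lists, 1 point per gene, red or blue where edgeR's adjusted p was under 0.05 (higher or lower) and grey otherwise, with a black line at the list median. All 23 E2F target genes and all 20 G2/M genes lie above 0, while p53 targets lie on both sides, 12 called higher and 14 lower.

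Between treatments no member measured in tumour cells moved past the size used here. With 1 library a group, differences were read against a size rule, a ratio past 1.5 after adding 10 CPM, for the 7 genes with a mean of at least 10 CPM, and Rb1, Phlda3 and Eda2r fell below that level. None of the 7 passed it in any of 5 comparisons, where 0.481% of 8943 measured genes did for anti-PD-1, 0.38% for YKL-5-124, 1.54% for the combination, 0.335% for the combination against anti-PD-1 and 0.257% for the combination against YKL-5-124. That none of the 7 passed lies near these shares over all genes and is not a result about the members. Ratios of the 7 ran from 0.833 to 1.24. Cdkn1a ratios to control were 0.946 with anti-PD-1 (exact 95% interval 0.909 to 0.985), 1.01 with YKL-5-124 (0.971 to 1.05) and 0.998 with the combination (0.960 to 1.04). Cdkn2a ratios were 1.07, 1.05 and 1.08, the last with an interval of 1.04 to 1.13. Bax was lowest with YKL-5-124, at a ratio of 0.914 (0.871 to 0.959), and Mdm2 highest there, at 1.15 (1.04 to 1.29). With equal weight for every cell the log2 differences with YKL-5-124 were 0.0015 for Mdm2 and 0.11 for Cdkn1a. Both lie outside the intervals given here for these genes. Trp53 ratios were 1.08, 1.06 and 0.990, each with an interval that spans 1. Intervals and floors cover counting error only, not the spread between mice.

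**Figure D4:**
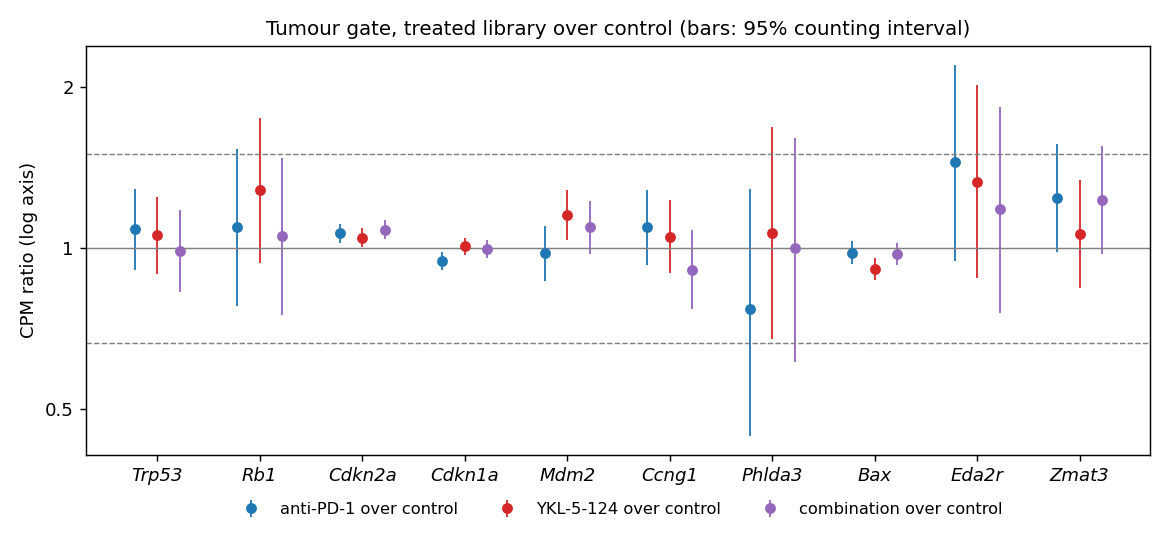
Ratio of CPM in the tumour gate to control (log axis) for the 10 genes under the 3 treatments, with exact 95% intervals for counting error and dashed lines at 1.5-fold. The 7 measured genes lie between 0.912 and 1.24, inside the dashed lines; Rb1, Phlda3 and Eda2r have wide intervals from few UMIs.

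Among the listed genes in tumour cells, Gdf15 was at 45.2 CPM in control, 19.4 with YKL-5-124 (ratio 0.430, 0.357 to 0.515) and 18.5 with the combination (ratio 0.409). Ccnb1, a mitotic cyclin, was at 116 and 184 CPM in control and YKL-5-124 (ratio 1.59). E2f6, an E2F that represses, was at 11.5 and 27.2 CPM in control and the combination (ratio 2.37), and Ccne1, a cyclin of the G1 to S transition, at 28.6 and 51.3 CPM (ratio 1.79). No other measured gene of the 5 lists passed in the 5 comparisons. The G2/M list had median log2 differences of 0.22 with anti-PD-1, 0.30 under YKL-5-124 and 0.21 in the combination, beside 0.0069, 0.04 and 0.02 over all genes, and E2F targets -0.0095, 0.14 and 0.03.

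In T cells 1 of 5 measured members, Cdkn1a, passed the rule in 1 comparison with control, where anti-PD-1 moved 3.4% of genes past it, YKL-5-124 6.73% and the combination 7.88%. It was at 58.5 CPM in control and 121 in the combination (ratio 2.06, 1.67 to 2.57). With equal weight for every cell its log2 difference fell from 0.93 to 0.52, which no longer passed. In the combination 72.1% of those UMIs lay in the top 5% of cells, 1 cell had 32, and the deeper cells had 149 CPM against 44.5 in the shallower ones. The top 5% are ranked by Cdkn1a itself, and held 78.8% in control, 81.7% with anti-PD-1 and 66.0% with YKL-5-124. Such a share is therefore not particular to the combination. The thinned share of cells with a Cdkn1a UMI was 4.52% in the combination and 4.16% in control, with overlapping intervals (3.30% to 6.02% and 2.90% to 5.76%). Dendritic and macrophage cells, both high in Cdkn1a, have markers in the T gate at low levels, 26 to 44 CPM and 376 to 459 CPM, and their part in the ratio was not tested. Mdm2 was lowest in anti-PD-1 T cells, and passed in the combination against anti-PD-1 (32.9 and 56.1 CPM, ratio 1.70, 1.23 to 2.40), where 5.57% of genes did.

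The E2F target and G2/M lists stood higher in T cells of the libraries with YKL-5-124, and also in NK cells and neutrophils. Of 19 measured E2F targets 14 were past the rule with YKL-5-124 (median log2 0.94, all genes 0.08) and 10 with the combination (0.74, all genes 0.07), all higher, and 0 with anti-PD-1. Of 20 G2/M genes 19, 17 and 0 were. Mki67, a proliferation marker, was at 23.8, 117 and 113 CPM in control, YKL-5-124 and combination T cells, and Rrm2, a subunit of ribonucleotide reductase, at 40.4, 172 and 135 CPM. Cdkn2d, the inhibitor p19Ink4d, was at 114 and 180 CPM in control and YKL-5-124. In NK cells 5 and 11 of 16 E2F targets were higher with YKL-5-124 and the combination, and 8 and 9 of 13 G2/M genes. Of all 6735 measured NK genes, 654 and 613 were higher and 537 and 399 lower. With anti-PD-1 3 of the E2F targets were higher, and 2 of the G2/M genes were higher and 3 lower. Over all NK genes 629 were higher and 471 lower with anti-PD-1. In neutrophils 13 and 15 of 17 E2F targets were higher with YKL-5-124 and the combination, and 12 and 13 of 15 G2/M genes. Under YKL-5-124 1 E2F target was lower. In this gate 42.7% and 46.8% of all genes passed. The neutrophil gates of the libraries with YKL-5-124 also held the most neuroendocrine marker RNA. The part of tumour RNA in these neutrophil counts was not tested. In these libraries at most 2 of either list were higher and 1 lower in B cells. In monocytes or macrophages 0 were higher and at most 2 lower. With anti-PD-1 5 of 10 G2/M genes and 0 of 16 E2F targets were higher in B cells, where 237 of 6612 genes were. In monocytes or macrophages 4 of 11 E2F targets and 2 of 7 G2/M genes were lower with anti-PD-1, where 282 of 6586 genes were. The replicate spread of these shares is not known.

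In the NK, B and monocyte/macrophage gates at most 1 member passed in each comparison with control. Cdkn1a in NK cells of the anti-PD-1 library was at 62.8 CPM against 105 (ratio 0.600, 0.360 to 0.983), where 16.3% of genes passed, and Mdm2 in the combination at 52.1 against 83.8 CPM (ratio 0.622, 0.376 to 1.03), where 15.0% did. In B cells Cdkn1a was at 16.3 against 29.5 CPM with anti-PD-1 (ratio 0.552, 0.275 to 1.05), where 6.58% passed. In monocytes or macrophages Mdm2 was at 64.6 CPM with YKL-5-124 against 39.7 (ratio 1.63, 1.12 to 2.43), where 8.0% passed. Neutrophil gates of control and anti-PD-1 held 94 and 100 cells, and 45.7%, 42.7% and 46.8% of genes passed there. Of 7 measured members 2 were higher and 1 lower with anti-PD-1, 2 and 1 with YKL-5-124, and 3 and 1 with the combination. Rb1, from 3 UMIs in control, was the one lower in each, and Cdkn2a, from 1 UMI in control, was higher in each, as was Mdm2 with either agent alone and Ccng1 with the combination. Of these intervals, that of Cdkn2a in the combination (ratio 11.4, 1.92 to 464) left out 1, and its log2 difference of 2.60 was 0.076 without the highest doublet scores. Cdkn1a was at 745 CPM in combination neutrophils against 329 in control (ratio 2.27, 1.59 to 3.33).

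Within the tumour gate Cdkn1a and Cdkn2a varied with depth and with mitotic RNA in the same direction in all 4 libraries. Split at the median UMI count, the deeper cells had 1.46, 1.39, 1.27 and 1.33 times the Cdkn1a CPM of the shallower cells and 1.09, 1.08, 1.10 and 1.19 times the Cdkn2a CPM, where the interval of anti-PD-1 (0.991 to 1.18) spans 1. Split by UMIs of the G2/M list after thinning to 2000 UMIs, cells with more had 1.34, 1.21, 1.30 and 1.14 times the Cdkn1a CPM and 1.18, 1.07, 1.23 and 1.17 times the Cdkn2a CPM. Bax was lower in that split, at 0.877, 0.870, 0.862 and 0.942 times, and the interval of the combination (0.871 to 1.02) spans 1. By depth Bax was at 1.01, 1.07, 0.979 and 1.09 times, each with an interval that spans 1. Cells with more mitotic RNA were also deeper (medians of 13702 to 14425 against 7033 to 8114 UMIs), so for Cdkn1a and Cdkn2a the depth and the mitotic RNA cannot be told apart here.

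**Figure D5:**
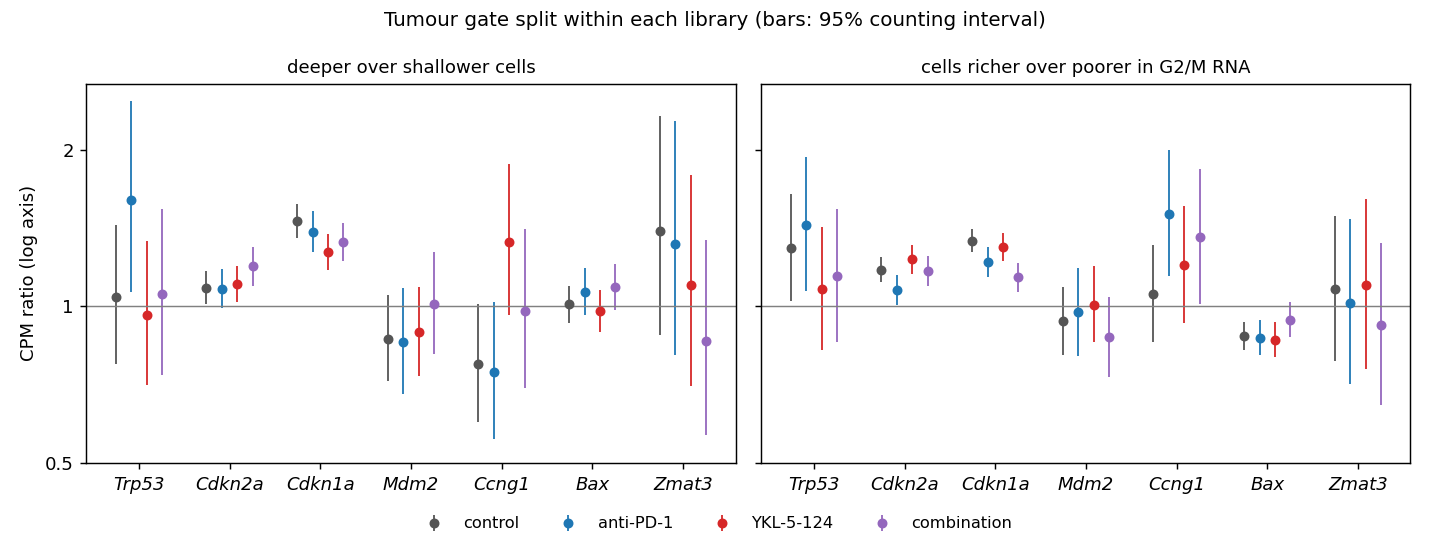
Ratio of CPM in the deeper over the shallower tumour cells, and in cells with more over fewer G2/M UMIs (log axis), for 7 genes in each library with exact 95% intervals for counting error. Cdkn1a lies at 1.14 to 1.46 in every library of both panels, and Bax at 0.862 to 0.942 in the G2/M panel.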

How the data were processed

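Single-cell RNA was measured in 4 libraries. The deposited values are raw UMI counts per gene and barcode, from bcl2fastq and Cell Ranger per the submitters' processing notes and software version 3.0.0 per the file headers. The notes name hg19 while the gene identifiers are those of mouse, and the aligned build and its annotation are likewise not given in sources used here. All scripts start from these counts, with edgeR 4.0.16 and DESeq2 1.42.0 in R 4.3.3, and with Scanpy 1.11.5, pandas 2.3.3, SciPy 1.17.1, NumPy 2.4.6 and Matplotlib 3.10.9 in Python 3.11.15. The members, gene lists and tests were chosen with earlier results of these data known.

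The barcode filter was a minimum of 500 UMIs and 300 detected genes, with mitochondrial transcripts making no more than 10%. Barcodes whose count was under 10% of that of the same barcode in another library were left out, a rule added after seeing the data, with their retention as an alternative. A cell entered a gate with at least 5 UMIs from at least 2 markers of 1 lineage making 60% or more of its marker UMIs. Levels are CPM of summed UMIs with exact Poisson 95% intervals, and ratios have exact conditional binomial intervals. Both cover counting error only. A count of 0 was read as up to 3 counts. Shares of cells were taken after thinning to 800 UMIs, with exact Clopper-Pearson intervals.

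The tumour gate was tested against each normal gate by edgeR's quasi-likelihood fit over 6 lineages and 4 libraries, TMM scaled, with the library as a block, called at an adjusted p under 0.05. The library number pairs the sums because gates of 1 library come from the same cell suspension. Treatments were read by a ratio past 1.5 after adding 10 CPM, for genes with a mean of at least 10 CPM. The alternatives were other scalings, filters, pseudocounts, gates, a 5% subtraction of free RNA, equal cell weights, DESeq2 and leaving out each library. Scrublet's automatic calls marked 2, 24, 53 and 3 cells, so as an alternative the 80, 42, 116 and 107 highest scores were removed instead. All 10 members are named, and of each list up to 4 called genes with the largest difference and 2 uncalled genes of the highest level. The fits were tested on simulated data. For Trp53, Cdkn2a and Cdkn1a the 3 genes most like each were sought, and 1 of them is not reported here.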

Additional observations from a re-analysis of the deposited data

Results flagged for a closer look

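Among 60 groups of 4 libraries, 1 per gene and gate, 5 held a library far from the other 3, where chance flags about 1 in 20. Rb1 in control neutrophils was at 28.2 CPM, from 3 UMIs. Cdkn1a in tumour cells was lowest with anti-PD-1, at 563 CPM against 594 to 599.7 in the others. Mdm2 in T cells was lowest with anti-PD-1, at 32.9 CPM. Phlda3 and Eda2r in YKL-5-124 neutrophils stood highest, at 2.5 CPM from 4 UMIs and 1.25 CPM from 2 UMIs, in the gate with the most cells. Barcodes repeated from another library at a small fraction of its count, 328, 447, 351 and 386 of them, were outside every comparison of the report.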

How the results depend on the processing

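Leaving out the block for the library, which pairs the gates, gave 8718, 7622, 8377, 9014 and 8069 genes called against T, NK, B, monocyte/macrophage and neutrophil gates, and left direction and side of the threshold as they were in all 40 comparisons of the members. The numbers of genes called stayed within 1.5 times of the main counts in 75 of 75 alternatives, leave-one-out included. Of 600 refits of the members 530 kept direction and call, 39 lost the call, 8 gained one and 23 changed sign. Scaling by total counts turned Rb1 (0.046) and Mdm2 (0.51) over T cells, Rb1 (0.30) and Mdm2 (0.19) over NK cells, Mdm2 (0.36) and Bax (0.21) over monocytes or macrophages, and Trp53 (0.60), Cdkn1a (0.30) and Ccng1 (0.32) over neutrophils. Size factors of DESeq2 turned Mdm2 over T cells (0.15) and Rb1 over NK cells (0.030), as did the DESeq2 test (0.16 and 0.040). Rb1 over NK cells was 0.40 under the stricter gate and -0.58 to 0.039 when 1 library was left out. Mdm2 over B cells was -0.027 with at least 1000 UMIs, -0.016 under the stricter gate, -0.028 without the highest doublet scores, -0.076 after free RNA subtraction, -0.051 with only those lineages, and -0.034 to 0.21 when 1 library was left out. Cdkn2a with YKL-5-124 in neutrophils, past the rule at 1.11, was -0.34 with equal cell weights, -0.15 under the stricter gate and -0.65 without the highest doublet scores. The causes were not tested. The numbers of tumour genes past 1.5-fold (43, 34 and 138) were 130, 103 and 248 with a pseudocount of 1 CPM, 10, 8 and 33 with 50 CPM, and for anti-PD-1 and YKL-5-124 85 and 61 with equal cell weights. Those of T cells (231, 458 and 536) were 652, 927 and 989 with 1 CPM and 31, 108 and 135 with 50 CPM. Under TMM scaling T-cell genes past the rule split 279 higher and 108 lower with YKL-5-124 (393 and 65 in CPM) and 337 and 142 with the combination (451 and 85). Cdkn1a in combination T cells gave a log2 difference of 0.93, and 0.52, no longer past the rule, with equal cell weights. Members below 10 CPM and gates of about 100 cells limit what could be seen.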
